A study of Mus musculus with 6 samples.

Results

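The genes described here encode the proteins of the cytosolic ribosome, and they were studied in eWAT, the white fat that lies along the epididymis. The members are the protein-coding genes of the count table whose symbol has the form Rpl or Rps followed by a digit, together with Rplp0, Rplp1, Rplp2 and Rpsa and without the Rps6k kinases, 94 of 54532 genes in all. They comprise 77 canonical ribosomal proteins, of which 31 belong to the small subunit, 43 to the large subunit and 3 to the P-stalk of the large subunit. The other 17 are 8 paralogs of ribosomal proteins, 8 rows with a pseudogene symbol that are annotated as protein-coding, and Rps19bp1, which encodes a protein that binds Rps19 and is no ribosomal protein itself. Fau, which encodes a ribosomal protein fused to a ubiquitin-like protein, does not carry such a symbol and is given apart.

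RNA sequencing of total RNA compared eWAT from 3 cachectic samples with 3 control samples, all from male C57BL/6 mice obtained at 6 to 10 weeks of age. Cachexia, the wasting of fat and muscle in cancer, was induced by subcutaneous inoculation of LLC cells, a mouse Lewis lung carcinoma line, and was defined by a body weight loss of more than 20%. The control mice are the study's mice without cachexia, and tissue was harvested on day 21. No transgene or allele was involved, the model rests on a single tumor line, and the sources used here do not say whether a library came from 1 mouse or from a pool, so the p-values measure the spread between these samples.

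Ribosomal proteins assemble with ribosomal RNA into the small subunit, which reads the mRNA, and the large subunit, which joins amino acids into protein. The P-stalk is a flexible arm of the large subunit, built on Rplp0 and carrying Rplp1 and Rplp2, that recruits elongation factors. The mRNAs of most ribosomal proteins begin with a C followed by a run of pyrimidines, the 5' terminal oligopyrimidine (TOP) tract, through which LARP1 and the kinase complex mTORC1 control their translation and stability. Because each mRNA encodes 1 part of the same particle, their levels are usually set together.

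The starts of a few members are shown because this tract is the feature that the transcripts are best known to share. Each window holds the 15 bases before and the 15 bases after the transcription start listed by RefSeq on GRCm38.p6, read 5' to 3' on the gene's own strand, and the capitals mark a C followed by at least 4 pyrimidines that begins within 5 bases of the start. The first 4 belong to small subunit genes, Rps27 at chr3:90213634-90213663 (minus strand), Rps6 at chr4:86857353-86857382 (minus strand), Rps18 at chr17:33955651-33955680 (minus strand) and Rps9 at chr7:3704026-3704055 (plus strand).
Rps27: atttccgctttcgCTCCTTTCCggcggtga
Rps6: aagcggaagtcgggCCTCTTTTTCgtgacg
Rps18: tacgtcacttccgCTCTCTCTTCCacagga
Rps9: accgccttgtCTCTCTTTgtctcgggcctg
The next 5 belong to the large subunit and the P-stalk, Rpl7a at chr2:26910792-26910821, Rpl38 at chr11:114668565-114668594, Rpl28 at chr7:4792950-4792979 and Rplp2 at chr7:141447636-141447665 on the plus strand, and Rpl35 at chr2:39005117-39005146 on the minus strand.
Rpl7a: attccctcttCTTTCTTTCTCCagcagccg
Rpl38: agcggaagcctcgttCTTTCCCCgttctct
Rpl28: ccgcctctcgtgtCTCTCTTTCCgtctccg
Rplp2: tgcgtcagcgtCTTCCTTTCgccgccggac
Rpl35: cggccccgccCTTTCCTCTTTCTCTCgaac
The last 2 are shown for contrast. Rps27rt at chr9:114982725-114982754 (minus strand) is a near-identical copy of Rps27, and Rps28 at chr17:33824548-33824577 (minus strand) has no such tract in its window, where the capitals mark the motif TCTCGCGA instead.
Rps27rt: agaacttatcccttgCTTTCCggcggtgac
Rps28: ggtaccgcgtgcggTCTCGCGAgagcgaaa

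RefSeq listed a promoter for 66 members, 57 of them canonical. At the listed starts, the tract was present in 27 of the 57 canonical members (47.4%) and in 21.2% of the 27025 genes with a listed promoter. This count depends on the listed start being right to within 5 bases. In the windows of Rpl4 and Rpl13, such runs began farther from the start and were not counted. A gene without a tract here may therefore still have a TOP start. By this count, the tract was held by 17 of the 35 canonical members that rose in cachexia (48.6%) and by 10 of the 22 that did not pass the test (45.5%). Over the window from 250 bases before to 50 bases after the start, on both strands, the ETS motif CCGGAAG was found in 42.1% of canonical members and in 9.93% of all genes. TCTCGCGA was found in 19.3% and 1.13%. The E-box CACGTG, to which Myc binds, was found in 10.5% and 8.09%, TATAAA in 10.5% and 15.7%, and CCAAT in 31.6% and 41.1%. Among mitochondrial ribosomal proteins, which form the separate ribosome of the mitochondrion, the tract was found in 24.6% and CCGGAAG in 37.7% of 69 genes. These matches describe letters in a window and no bound site.

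The libraries held between 14928766 and 18855546 counts. The adipocyte markers (Adipoq, Plin1, Cidec, Lep, Fabp4 and Pparg) summed to between 13339 and 17711 CPM (counts scaled by normalized library size) in control and between 11841 and 22631 in cachexia, of which Fabp4 was the largest part. Among them Cidec rose (log2 fold change 0.87, adjusted p = 0.0322) and Lep fell by 3.14 on the log2 scale (adjusted p = 0.0475), and Plin1 was lower in every cachexia sample without passing (log2 fold change -1.44, adjusted p = 0.057). Progenitor markers summed to between 388 and 457 CPM in control and between 252 and 392 in cachexia, with 1 of 4 lower. In contrast, 3 epididymis markers stayed under 1 CPM in sum in every sample, with Defb22 at 0. Control replicate 1 stood apart from the other 2 controls in the level of the ribosomal protein genes, as given below. Sums of blood and immune cell markers moved with the groups. Over all tested genes, 9% rose and 8.63% fell at an adjusted p-value under 0.05. Neutrophil markers summed to between 27.8 and 47.8 CPM in control and between 237 and 612 in cachexia, and all 6 rose. Erythroid markers summed to between 252 and 451 CPM in control and between 1331 and 2850 in cachexia, and all 5 rose. Endothelial markers summed to between 1118 and 1148 CPM in control and between 1516 and 2411 in cachexia, with 2 of 4 higher. B cell markers summed to between 416 and 524 CPM in control and between 9.83 and 128 in cachexia, with 1 of 5 lower, and T cell markers to between 4.81 and 6.87 CPM in control and between 2.33 and 2.95 in cachexia, with 1 of 4 lower. Macrophage markers summed to between 476 and 622 CPM in control and between 279 and 448 in cachexia, with 1 of 5 lower. In the macrophage and T cell lists, 1 marker each had a positive log2 fold change. The part of these cell types in the results below was not tested, and in bulk tissue fewer cells of a type and less RNA per cell cannot be told apart.

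The ribosomal protein genes took a larger share of the libraries in cachexia. Of all counts, 2.37%, 1.68% and 1.73% fell on them in the controls, by replicate number, and 3.07%, 3.25% and 3.10% in the cachexia samples. The groups did not overlap, and the highest control was replicate 1. The mean was 1.93% ± 0.389 in control and 3.14% ± 0.0962 in cachexia (SD, n = 3 each), a ratio of 1.63. With 3 samples against 3, a two-sided exact permutation test cannot give a p-value under 0.1, so none was made on the share. Scd1, an abundant adipocyte enzyme, held 3.02% of counts in control and 0.629% in cachexia, and mitochondrially encoded genes held 4.52% and 3.36%. Without these genes in the denominator the ratio was 1.57.

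**Figure D1:**
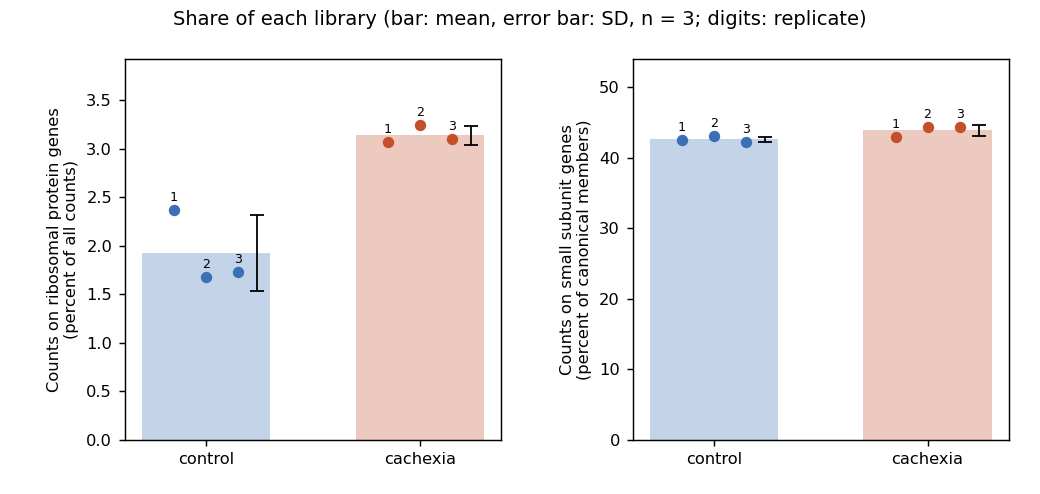
Left, the percentage of all counts on ribosomal protein genes in each sample; right, the percentage of counts on canonical members that fell on small subunit genes. Bars are means, error bars are SD (n = 3) and points are samples with their replicate number. On the left, the cachexia samples lie between 3.07% and 3.25%, above all controls; on the right, all samples lie between 42.3% and 44.4%.

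The balance of the subunits moved little beside that of the total. Small subunit genes received 42.6%, 43.0% and 42.3% of the counts on canonical members in the 3 controls, and 43.0%, 44.4% and 44.4% in the 3 cachexia samples. In the plot of shares, cachexia replicate 1 is level with control replicate 2, so the groups overlap slightly.

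Of the 94 members, 87 had enough counts for the quasi-likelihood test of edgeR, and 51 rose in cachexia at a Benjamini-Hochberg adjusted p-value under 0.05. Over all 16003 tested genes, 9% rose and 8.63% fell, 17.6% in all. None of the members fell by edgeR, DESeq2 or limma-voom, and 1 was lower at an unadjusted p-value under 0.05 in edgeR. All 51 were canonical, so that 66.2% of the 77 canonical members rose. The log2 fold change of cachexia over control was positive for all 77 canonical members (49.8% of all tested genes were positive) and had a median of 0.71, or 1.64-fold, with quartiles of 0.46 and 0.92 and a range from 0.16 to 1.91. The median over all tested genes was -0.003. In 70 of the 77, every cachexia sample lay above every control sample, against 20.4% of all tested genes, and in none did every cachexia sample lie below, against 20.1%. Of the 87 tested members, 11 (12.6%) rose with a log2 fold change of at least 1, against 4.57% of all tested genes. Taken over the genes that rose, these were 21.6% of the members and 50.8% of all genes. The 7 that overlapped were Rpl17, Rpl24, Rpl30, Rpl39, Rpl41, Rps10 and Rps12, named after their values were seen.

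The count of calls depended on single libraries, whereas the direction did not. Without control replicate 3, 4 members passed (Rps27, Rps21, Rpl36 and Rpl35a), where 2.31% of all genes tested were higher, and without control replicate 2, 11 passed, where 3.62% were higher. Without cachexia replicate 1, 25 passed, where 6.22% were higher. In each of these 3 fits the log2 fold change of all 77 canonical members was still positive, with medians of 0.65, 0.63 and 0.71. For the 70 members without overlap between the groups, leaving out 1 sample could hardly change the direction. Without control replicate 1, the control with the highest share, 52 members passed, where 6.73% of all genes were higher.

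**Figure D2:**
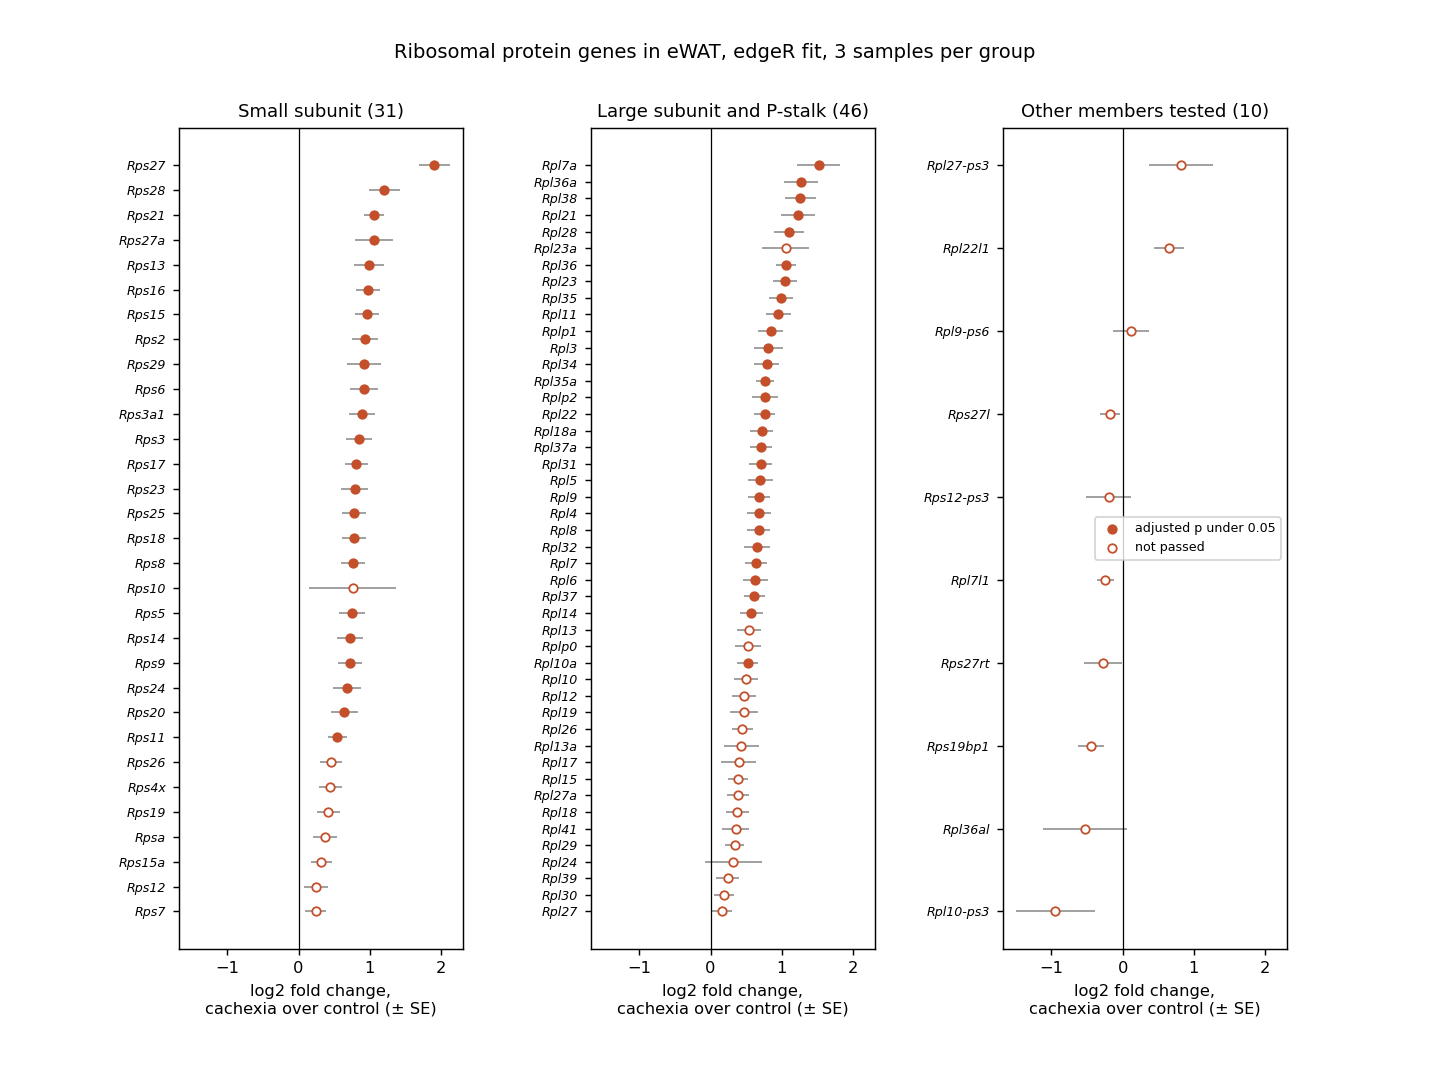
Log2 fold change of cachexia over control (x axis) for the 87 tested members, in panels of 31 small subunit genes, 46 large subunit and P-stalk genes, and 10 other members. Lines are ± SE, and filled points have an adjusted p-value under 0.05. All 77 canonical members lie to the right of 0, from 0.16 for Rpl27 to 1.91 for Rps27, whereas 7 of the 10 others lie to the left.

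Near the threshold, Rps20, Rpl14 and Rpl10a were just inside, with adjusted p-values of 0.0482, 0.0483 and 0.0488, and Rpl23a, Rpl13 and the paralog Rpl22l1 were just outside, with 0.0634, 0.0671 and 0.0707. Their log2 fold changes, 0.64, 0.57 and 0.52 inside and 1.06, 0.54 and 0.65 outside, did not separate in size. Of the 77 canonical members, 65 were higher at an unadjusted p-value under 0.05, as were 17.4% of all tested genes.

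Of the 31 small subunit genes, 23 rose, with a median log2 fold change of 0.78 over all 31. Rps27 (ENSMUSG00000090733, chr3:90212522-90213651, minus strand), a zinc-binding protein of the subunit whose start is the first shown above, had the largest change of any member. It was read at 91.5, 52.9 and 63.1 CPM in the controls and at 259, 235 and 284 CPM in cachexia, a log2 fold change of 1.91 (SE 0.22, adjusted p = 0.0027). The lowest cachexia sample was above the highest control by a wide margin.

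Rps21 (chr2:180257377-180258445), one of the smallest proteins of the subunit, rose from 131, 107 and 117 CPM to 263, 239.8 and 237 CPM, a log2 fold change of 1.06 (SE 0.14, adjusted p = 0.0038). Rps28 (chr17:33819027-33824562) rose from 88.2, 51.7 and 55.3 CPM to 163, 132 and 154 CPM, a log2 fold change of 1.20 (SE 0.22, adjusted p = 0.0114). Rps16, which reaches the decoding site with its tail, rose from 202, 145 and 148 CPM to 347, 324 and 303 CPM, a log2 fold change of 0.97 (SE 0.17, adjusted p = 0.0104). In all 3 control replicate 1 was the highest control, and in none did the groups overlap.

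Rps3a1, Rps15 and Rps6 had the highest levels of the small subunit in FPKM, which scales fragments by gene length and library size. These ranks depend on the deposited gene length, which for some members far exceeds the longest protein-coding transcript. Rps15, a protein of the subunit's head, had a mean level of 449 ± 65.7 FPKM in control and 865 ± 64.2 in cachexia (SD, n = 3 each), and its log2 fold change in counts was 0.96 (adjusted p = 0.00992). Rps3a1 had mean levels of 472 ± 74.5 and 864 ± 69.5 FPKM, with a log2 fold change of 0.89 (adjusted p = 0.0169). Rps6, the subunit's substrate of the S6 kinases, was read at 476, 397 and 382 CPM in control and at 666, 933 and 770.3 CPM in cachexia, a log2 fold change of 0.92 (SE 0.19, adjusted p = 0.018). All 3 rose without overlap between the groups.

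The 8 small subunit genes that did not pass had log2 fold changes between 0.24 and 0.76. Rps7 was the lowest at 0.24, with 333, 276 and 269 CPM in control and 334, 368 and 336 CPM in cachexia, and Rps12 followed at 0.25 with overlapping groups. Rpsa, also known as a laminin receptor, had 747, 678 and 727 CPM in control and 827, 934 and 1027 CPM in cachexia (log2 fold change 0.37, adjusted p = 0.162). Rpsa and Rps7 did not overlap between groups, although their differences did not pass the test.

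Of the 43 large subunit genes, 26 rose, with a median log2 fold change of 0.66 over all 43. Rpl36 (chr17:56613416-56614243) rose from 130.2, 107 and 118 CPM to 264, 225 and 247 CPM, a log2 fold change of 1.05 (SE 0.14, adjusted p = 0.00418). Rpl23 (chr11:97777527-97782437), which lies beside the binding site of elongation factors and also binds Mdm2, rose from 201, 144 and 151 CPM to 345, 329 and 349 CPM, a log2 fold change of 1.04 (SE 0.17, adjusted p = 0.00786). Rpl38 (chr11:114668524-114672331), known for its part in the translation of Hox mRNAs in the embryo, rose from 74.8, 47.1 and 57.2 CPM to 152, 111 and 166 CPM, a log2 fold change of 1.26 (SE 0.22, adjusted p = 0.00936). No cachexia sample of these 3 genes came down to a control.

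Rpl36a (chrX:134585654-134588062) rose from 117, 65.3 and 67.4 CPM to 195, 195 and 212 CPM, a log2 fold change of 1.27 (SE 0.24, adjusted p = 0.0119). Rpl11, which binds the 5S ribosomal RNA together with Rpl5 and restrains Mdm2, rose from 237, 184 and 209 CPM to 475, 359 and 378 CPM (log2 fold change 0.95, SE 0.18, adjusted p = 0.0121), and Rpl5 itself had a log2 fold change of 0.70 (adjusted p = 0.0343). Rpl35a rose from 99.5, 93.4 and 106 CPM to 180.2, 152 and 175 CPM, with a log2 fold change of 0.76 (SE 0.13, adjusted p = 0.00928). In Rpl36a control replicate 1 was again well above the other controls, whereas in Rpl35a the 3 controls lay close together.

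Rpl35, at the exit of the peptide tunnel, rose from 155, 111 and 133 CPM to 261, 240.3 and 291 CPM, a log2 fold change of 0.99 (SE 0.17, adjusted p = 0.0089). Its value is uncertain, because 66.2% of its exonic bases also lie in exons of Arpc5l or Wdr38 on the other strand and the sources do not say whether strand was used in counting. Likewise Rpl23a, whose log2 fold change of 1.06 did not pass (adjusted p = 0.0634), shares 62.3% of its exonic bases with other genes, among them Tlcd1. Tlcd1 itself was read at 55.4, 65.4 and 55.6 CPM in control and at 15.3, 24.5 and 15.01 CPM in cachexia. Rpl23a summed with its pseudogene copies had a log2 ratio of 0.93, and of 0.46 with Tlcd1 added. In all, 15 of the 77 canonical members share at least 10% of their exonic bases with another gene.

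Rpl41, Rpl36 and Rpl4 had the highest per-length levels of the large subunit, with the same dependence on gene length. Rpl4, whose loop lines the peptide tunnel, had a mean level of 304 ± 19.8 FPKM in control and 481 ± 38.8 in cachexia, and rose with a log2 fold change of 0.68 (SE 0.17, adjusted p = 0.029). It passed in 12 of 18 alternative fits. It did not pass without control replicate 2 (adjusted p = 0.116), control replicate 3 (0.136), cachexia replicate 1 (0.0691) or cachexia replicate 2 (0.0599). Nor did it pass with no filter (0.0635) or with the replicate block (0.084). Rpl41, the smallest protein of the ribosome, had 509.6 ± 73.2 and 644 ± 90.7 FPKM, and its log2 fold change of 0.35 did not pass (adjusted p = 0.233). Its CPM values were 696, 529 and 583 in control and 779.7, 656 and 872 in cachexia, so that control replicate 1 lay above cachexia replicate 2.

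The smallest change of any canonical member was that of Rpl27, read at 205, 173 and 211 CPM in control and at 215, 222 and 222 CPM in cachexia (log2 fold change 0.16, SE 0.14, adjusted p = 0.442). Rpl30, with 158, 125 and 136 CPM in control and 166, 156 and 154 CPM in cachexia, had a log2 fold change of 0.19 (adjusted p = 0.38). Rpl27 was higher in every cachexia sample and Rpl30 overlapped, and neither difference passed the test.

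In the P-stalk, 2 of 3 genes rose. Rplp1 had the highest FPKM of all members, with a mean of 746 ± 112 in control and 1328 ± 118 in cachexia. This rank depends on the deposited gene length, which is 499 bases for Rplp1, the length of its longest protein-coding transcript. Rps18 has 2491 bases against a longest such transcript of 560, which lowers its FPKM. In CPM, Rplp0 was above Rplp1 in every sample. Rplp1 was read at 442, 347 and 342 CPM in control and at 719, 705 and 611 CPM in cachexia (log2 fold change 0.85, SE 0.18, adjusted p = 0.0174). Rplp2, its dimer partner, rose from 266, 270.2 and 348 CPM to 487, 443 and 567 CPM (log2 fold change 0.76, SE 0.18, adjusted p = 0.0267). Rplp0, the base of the stalk, had 811, 628 and 646 CPM in control and 961, 1074 and 964 CPM in cachexia, and its log2 fold change of 0.52 (SE 0.18) did not pass (adjusted p = 0.0828). The groups did not overlap in any of the 3, and Rplp2 was the one in which control replicate 3 was the highest control. Without control replicate 2 the adjusted p-values of Rplp1 and Rplp2 were 0.079 and 0.106, and without control replicate 3 they were 0.0949 and 0.0606, so that neither passed in these fits. Rplp2 also did not pass without control replicate 1 (0.0666), cachexia replicate 1 (0.0607) or cachexia replicate 3 (0.0543). Rplp1 also did not pass with log2 FPKM at pseudocounts of 1 and 0.1 (0.0631 and 0.0714) or with an offset for gene length (0.0723).

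**Figure D3:**
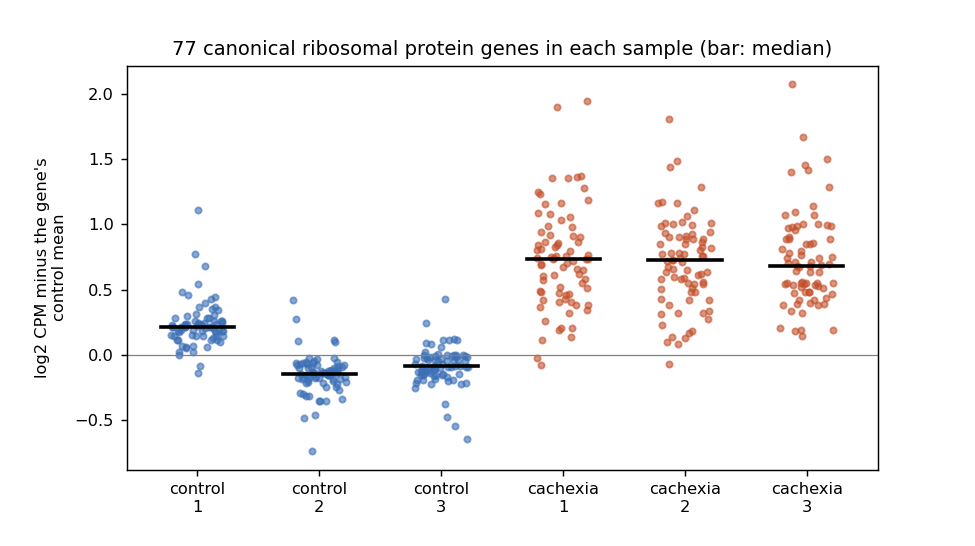
Each point is 1 of the 77 canonical members in 1 sample, as log2 CPM minus the mean of that gene over the 3 controls (y axis), and bars are medians. The medians are 0.21, -0.15 and -0.09 in the controls by replicate number and 0.74, 0.73 and 0.69 in the cachexia samples.

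The members varied together from sample to sample, also within the control group, where control replicate 1 differed over all genes as well. By replicate number, the median difference from the control mean was 0.21, -0.15 and -0.09 (log2) in the controls, against 0.74, 0.73 and 0.69 in the cachexia samples. Control replicate 1 was the highest control for 68 of 77 canonical members. Its median stood between those of the other controls and of cachexia, whereas the 3 cachexia medians lay close together. The cachexia samples were above every control in 73, 71 and 75 of the 77 members. Neither these counts nor that of the highest control were made over all tested genes. All 3 cachexia samples were above every control in 70 of the 77 members and in 20.4% of all tested genes. The plot of differences by sample shows the shift of the whole cloud of points.

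The order of levels among members was largely kept. Mean FPKM of canonical members ran from 0.637 to 746 in control (median 118) and from 1.08 to 1328 in cachexia (median 197), and their ranks in the groups had a Spearman rho of 0.95 over the 77 genes, which share libraries and gene lengths. The log2 fold change had a Spearman rho of -0.21 with gene length and -0.17 with mean CPM across these genes, which are not independent replicates. Among all 933 tested protein-coding genes shorter than 1500 bases, 10.2% rose, with a median log2 fold change of -0.02, and among the 2079 genes with a mean of at least 100 CPM, 15.2% rose, with a median of 0.06. Both sets include the ribosomal protein genes that meet these limits.

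Ribosomal protein genes have many near-identical copies in the genome, among which reads can be split. A gene was taken as a copy where it held at least 20% of the 75-base windows of a member's transcript. By this measure 60 of the 77 canonical members share at least 20% of their windows with other genes, overlapping neighbors included. Copies that are pseudogene rows or members themselves were found for 50. When the counts of each of the 50 were added to those of its copies, all 50 sums had a higher mean in cachexia, with a median log2 ratio of 0.72, compared with 0.71 for the members alone. The SD over members was 0.288 for the sums and 0.354 for the members alone. Where copies held few counts, as for Rpl10 (7.07 of 449 CPM in control), the sum could differ little from the member. The sources do not say how reads with more than 1 match were treated, and reads left uncounted are not in these sums. Other genes that share windows, in 22 pairs with a canonical member, were left out of these sums, a choice made after seeing the data, because some are unrelated genes on the same stretch of genome. With them, 56 members had a sum and the median log2 ratio was 0.69. The 15 canonical members with little sequence in common with other genes included 13 that rose, with a median of 0.72 and an SD of 0.206. The other 62 included 38 that rose, with a median of 0.71 and an SD of 0.339. The 297 pseudogene rows with ribosomal protein names held between 3.52% and 3.83% of the counts on members and these rows in every sample.

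Rps27 was the canonical member whose value moved most when its copies were added. Rps27rt (ENSMUSG00000050621, chr9:114982366-114982739, minus strand), annotated as a protein-coding copy, shares 90.3% of its windows with other genes, and Rps27 shares 60.7%. Rps27rt was read at 181, 152 and 127 CPM in control and at 114, 178 and 87.7 CPM in cachexia, and its log2 fold change of -0.28 (SE 0.26) did not pass (adjusted p = 0.499). Added up with both copies, Rps27 had 272, 205 and 191 CPM in control and 373, 413 and 372 CPM in cachexia, a log2 ratio of 0.79 compared with 1.91 for Rps27 alone. The largest change among the members came close to the median of all canonical members when its copies were counted with it. For Rpl7a, whose row rose from 63.1, 28.6 and 33.9 CPM to 147, 107 and 105 CPM (log2 fold change 1.52, SE 0.30, adjusted p = 0.0151), the sum with 14 copies still had a log2 ratio of 1.37.

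**Figure D4:**
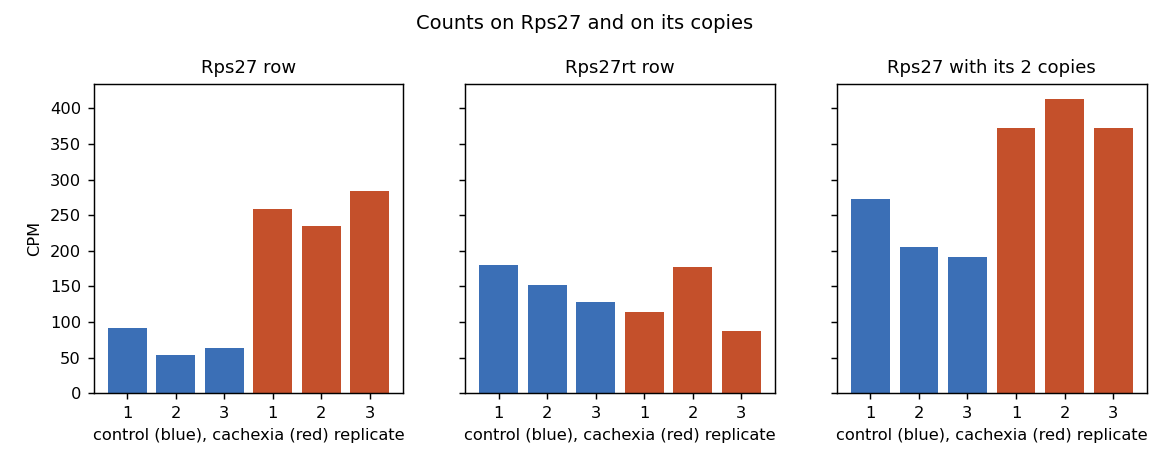
CPM of the Rps27 row, the Rps27rt row and the sum of Rps27 with its 2 copies in control (blue) and cachexia (red) replicates 1 to 3. The Rps27 row lies at 52.9 to 91.5 in control and 235 to 284 in cachexia, the Rps27rt row overlaps between groups, and the sum lies at 191 to 272 and 372 to 413.

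A few canonical rows held almost no counts. Rps10 was read at 2.76, 0.745 and 0.963 CPM in control and at 2.22, 1.35 and 4.06 CPM in cachexia, while 28.7% of its exonic bases lie in other genes, among them the readthrough gene RPS10-NUDT3, which had no count. The pseudogene Rps10-ps2 was read at between 42.7 and 88.3 CPM. Rpl24 stayed under 3 CPM and Rpl13a under 15 CPM in every sample, with 47.0% and 35.4% of their exonic bases in other genes. None of the 3 passed the test, and their levels are uncertain because reads may have been counted elsewhere or not at all.

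Outside the canonical set, none of the 10 tested members passed in edgeR, and 1 was higher and 1 lower at an unadjusted p-value under 0.05. Their median log2 fold change was -0.22 and 7 of 10 were negative. Rps27l, a paralog of Rps27 induced by p53, shares few windows with other genes and was read at 80.7, 77.7 and 78.9 CPM in control and at 70.6, 58.7 and 81.3 CPM in cachexia (log2 fold change -0.17, adjusted p = 0.433). Rpl7l1, a paralog linked to ribosome assembly, had 69.2, 69.6 and 72.1 CPM in control and 59.9, 53.3 and 64.8 CPM in cachexia (log2 fold change -0.24, adjusted p = 0.191). Rpl22l1, the paralog of Rpl22, had 21.5, 15 and 12.4 CPM in control and 24.9, 24.3 and 27.9 CPM in cachexia (log2 fold change 0.65, adjusted p = 0.0707). Rps19bp1 had 23.5, 22.1 and 26.7 CPM in control and 19.7, 13.8 and 19.9 CPM in cachexia, with a log2 fold change of -0.44 (adjusted p = 0.131, and 0.041 with an offset for gene length). Rpl22l1 was thus higher in every cachexia sample and Rpl7l1 and Rps19bp1 lower in every one, without passing the test, and Rps27l overlapped.

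The paralog Rpl36al stayed under 1 CPM, with a log2 fold change of -0.53 (adjusted p = 0.573). Of the pseudogene symbols, Rpl9-ps6 had a log2 fold change of 0.12, Rps12-ps3 of -0.20, Rpl10-ps3 of -0.95 and Rpl27-ps3 of 0.82, with adjusted p-values of 0.788, 0.702, 0.267 and 0.238 and overlapping groups. The 7 members not tested were the paralogs Rpl3l, Rpl10l and Rpl39l, known from muscle and testis, and Rpl9-ps1, Rpl13a-ps1, Rpl36-ps4 and Rpl36a-ps1, each with at most 0.553 CPM in any sample.

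The mitochondrial ribosomal proteins differed from the cytosolic ones in their counts. Of 77 tested, 5 rose (6.49%, against 9% of all tested genes) and 4 fell (5.19%, against 8.63%), with a median log2 fold change of -0.02. This contrast was described and not tested as a difference between sets.

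**Figure D5:**
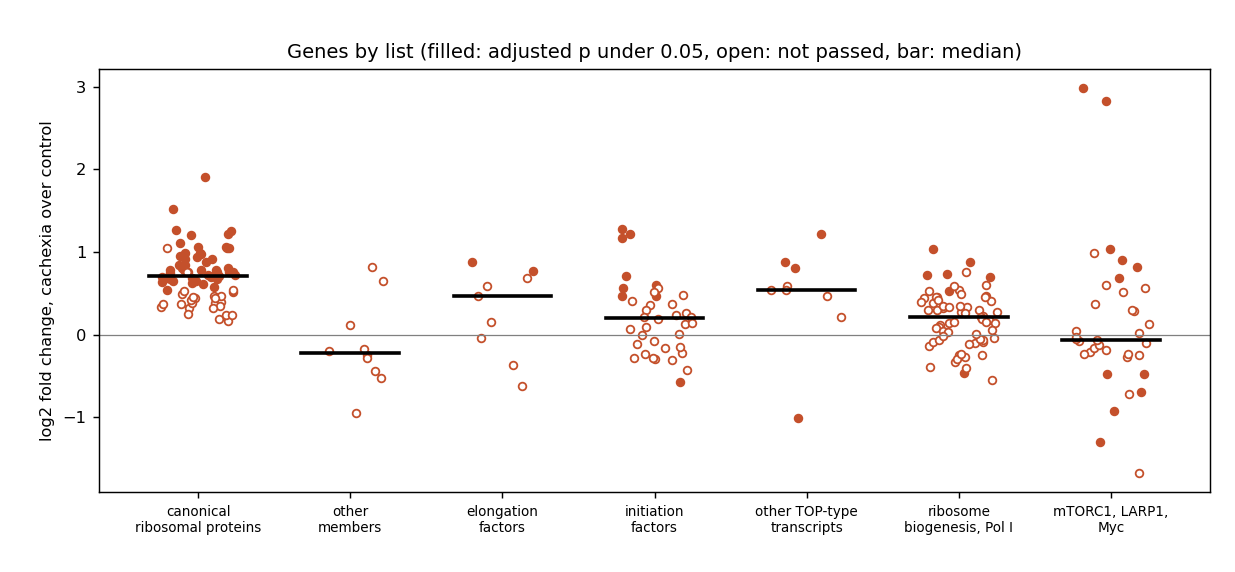
Log2 fold change of cachexia over control (y axis) of single genes in the canonical members, the other members and 5 lists of genes related to translation. Filled points have an adjusted p-value under 0.05 and bars are medians, which are 0.71 and -0.22 for the members and 0.47, 0.20, 0.54, 0.22 and -0.06 for the lists from left to right.

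The genes that work beside the ribosome were listed by role, and in these lists 26 of 161 tested genes rose (16.1%, against 9% of all tested genes) and 8 fell (4.97%, against 8.63%), with a median log2 fold change of 0.21. Without control replicate 2, 10 rose and 2 fell, where 3.62% of all genes rose and 712 of 16576 fell. Without control replicate 3, 6 rose and 1 fell, where 2.31% rose and 446 of 16502 fell. The number that fell was 3 without control replicate 1, where 1086 of all 16370 genes fell. It was 3 without cachexia replicate 1, where 982 of 16631 fell, and 2 without cachexia replicate 2, where 930 of 16574 fell. Fau had a log2 fold change of 0.56 (adjusted p = 0.0536). Rps27a, whose protein is made as a fusion with ubiquitin, rose with a log2 fold change of 1.06 (adjusted p = 0.0333).

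Of 9 elongation factors, 2 rose (22.2%, against 9% of all tested genes). Eef1d and Eef1b2, subunits of the exchange factor that reloads eEF1A with GTP, had log2 fold changes of 0.88 (adjusted p = 0.00832) and 0.78 (adjusted p = 0.0165). Eef1a1 and Eef2, which carry the transfer RNA and move the ribosome along the mRNA, had log2 fold changes of 0.59 (adjusted p = 0.144) and 0.69 (adjusted p = 0.0906). Of 9 other transcripts with a TOP start, 3 rose (33.3%) and 1 fell (11.1%, against 8.63% of all tested genes). Npm1, a nucleolar chaperone, Hnrnpa1, an RNA-binding protein, and Naca, which binds nascent chains, had log2 fold changes of 1.21, 0.89 and 0.81. Vim, which encodes vimentin of mesenchymal cells, fell by 1.01 on the log2 scale, and Tpt1 was at 0.54 without passing (adjusted p = 0.0843).

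Of 38 initiation factors, 8 rose (21.1%, against 9% of all tested genes) and 1 fell (2.63%, against 8.63%). Eif4a2, an RNA helicase, its cofactor Eif4b and Eif3g, a subunit of eIF3, had log2 fold changes of 1.27, 1.17 and 1.22. Eif4e, which binds the cap of the mRNA, fell by 0.57 on the log2 scale (adjusted p = 0.0307). Of 67 genes of ribosome biogenesis and RNA polymerase I, 7 rose and 1 fell (1.49%, against 8.63% of all tested genes). Las1l, which cleaves the ribosomal RNA precursor, Taf1d, a subunit of the polymerase I factor SL1, and Gnl3 had log2 fold changes of 1.03, 0.89 and 0.73. Pes1 rose (0.53) whereas its partner Bop1 fell by 0.47 on the log2 scale, and they passed in 13 and 10 of 18 alternative fits. The share of biogenesis genes that rose, 10.4%, was close to that of all tested genes, 9%, whereas 66.2% of the canonical members rose. The biogenesis genes still leaned upward, with 47 of 67 positive and a median log2 fold change of 0.22, against -0.003 over all tested genes. In 27 of the 67 every cachexia sample lay above every control, against 20.4% of all tested genes. In 6 every cachexia sample lay below, against 20.1%.

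Of 36 genes of the mTORC1 pathway with Larp1 and Myc, 6 rose (16.7%, against 9% of all tested genes) and 5 fell (13.9%, against 8.63%). Ddit4, an inhibitor induced by stress, was read at 46.2, 26.2 and 22.6 CPM in control and at 157, 289 and 309 CPM in cachexia (log2 fold change 2.99, SE 0.36, adjusted p = 0.00306). Sesn1 and Sesn2, sensors that restrain the pathway, had log2 fold changes of 1.03 and 0.91, and Eif4ebp1 and Eif4ebp3, which bind eIF4E, of 0.82 and 2.83. Mxi1, an antagonist of Myc, had 0.69. Inhibitors were also among those lower in cachexia. Deptor, which binds mTOR, fell by 1.30 on the log2 scale, Tbc1d7, a subunit of the TSC complex, fell by 0.69, and Castor2, of the arginine sensor family, fell by 0.47. Of 18 alternative fits, Deptor passed in 18, Tbc1d7 in 9 and Castor2 in 4. Among the genes that rose, Ddit4 and Sesn1 passed in 18, Sesn2 and Mxi1 in 15 and Eif4ebp1 in 10, and Eif4ebp3 in 13 of 17. Lamtor1 and Rraga, which anchor mTORC1 to the lysosome, fell by 0.92 and 0.47 and passed in 17 and 9 of the 18 alternative fits. Larp1, the binding protein of the TOP tract, had a log2 fold change of -0.06 (adjusted p = 0.806), Mtor of 0.04 (adjusted p = 0.899) and Myc of 0.57 (adjusted p = 0.109). The mRNA of a signaling protein is no measure of its activity, and translation was not measured.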

How the data were processed

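The authors removed adapter, poly-N and low-quality reads (paired ends, 150 bases), aligned the rest with Hisat2, counted them per gene with featureCounts (1.5.0-p3 in the submitters' processing notes) and deposited the raw counts, with gene lengths in bases. The authors also deposited FPKM, computed from count and gene length, used here for levels compared between genes. The processing notes name mm9, but 99.8% of the identifiers are in GENCODE M21 (GRCm38), with the same coordinates for 98.3% of them, so coordinates are given on GRCm38. The annotation and strand setting are not given in the sources used here. The deposited table of the authors' own comparison (DESeq2 1.16.1, fold changes and p-values) was not used, including its 6 columns of per-sample values and 2 of group means.

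From these counts, edgeR 4.0.16 under R 4.3.3 gave TMM factors and, for the 16003 genes kept by filterByExpr, the quasi-likelihood test between the groups without covariates, at a Benjamini-Hochberg adjusted threshold of 0.05. CPM use the normalized library size, and SEs were obtained as the absolute log2 fold change over the square root of F. The biological coefficient of variation of 0.264 limits the precision of single genes. Groups and replicate numbers came from the labels. No 2 libraries were near-identical. The scripts were tested on simulated data. Alternatives were other normalizations and filters, DESeq2 1.42.0, limma 3.58.1 (voom, and log2 FPKM with a pseudocount of 1 or 0.1), a gene length offset, protein-coding genes alone, each sample left out and a replicate block.

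The members and gene lists were chosen with earlier results of these data known. Members were named by smallest p-value (up to 12), by highest mean FPKM in each class (3), by extreme fold change, or as paralogs, pseudogene symbols and name matches, and genes of other lists by smallest p-value (up to 6 per direction), with Fau, Eef1a1, Eef2, Tpt1, Larp1, Mtor and Myc always given. A gene that the rule covers is not reported here. Members named outside this rule (among them Rpl7a, Rpl5, Rpl30, Rpl23a, Rps7, Rps12, Rpsa, Rps27a, Rps10, Rpl24 and Rpl13a) and the printed start windows were chosen after their values were seen. Start windows and promoters came from the RefSeq table on GRCm38.p6.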

Additional observations from a re-analysis of the deposited data

How the results depend on the processing

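In every alternative fit, each of the 77 canonical members kept a positive log2 fold change, with medians between 0.63 and 0.83 (0.61 and 0.77 over all tested members). A member was lower at the threshold in 2 fits, Rpl10-ps3 without cachexia replicate 3 and Rps19bp1 with the gene length offset. Leaving out 1 sample gave between 4 and 52 members higher in place of 51, with between 382 and 1197 higher and between 446 and 1142 lower among all genes, and between 6 and 24 higher and between 1 and 8 lower in the lists of other translation and ribosome genes (26 and 8 in all samples). These fits hold fewer samples. DESeq2 called 63 members higher, among them Rplp0 and Rpl22l1, where 12.2% of all genes were higher. The counts were 52 (8.59% of all genes) with limma-voom, 45 (9.23%) with library totals and 42 (4.35%) with no filter on low counts, and requiring also a log2 fold change of at least 1 left 11 of the 51. In the other lists, DESeq2 gave 43 higher. Library totals and no filter gave 4 and 5 lower, where 1151 of 16003 and 1379 of 29764 genes were lower. The cause of these differences was not tested.

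Replicate numbers are shared by name, and the sources used here state no pairing, so the main fit used none. Same-numbered samples deviated with correlations of 0.01, -0.02 and 0.01, and samples did not correlate best with their own number. Such correlations cannot show that no pairing or shared batch existed. With the replicate block, 28 members rose, and the other lists had 17 higher and 3 lower. Of all genes, 913 rose (5.71%) and 968 fell. Leaving unrelated genes out of the sums with copies, an alternative added after seeing the data, moved the median log2 ratio from 0.69 to 0.72. Genes with few counts or with near-identical copies are limited most by depth and counting.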
